A study of Mus musculus with 8 samples.

Results

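The genes described here are 39 genes of the integrated stress response and of mitochondrial protein quality control, profiled by their open chromatin in conventional type 1 dendritic cells (cDC1). They were chosen from a list of pathway genes, and every region of the deposited table that lay inside the span of a member, or within 1 kb of either end of it, was taken as a member region. This gave 81 of the table's 59906 regions, at 35 of the 39 genes. They comprised 17 regions at 6 genes for sensors and eIF2 control, 9 regions at 6 of 8 transcription factor genes, and 55 regions at 23 of 25 target genes. Hspd1 and Hspe1 share 1 region, which is counted once. No region of the table lay at Atf4, Nupr1, Pycr1 or Vldlr, so nothing can be said about these 4 genes between the groups.

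The cells were cDC1 sorted from mouse spleen, a dendritic cell type that presents captured antigen to CD8 T cells. The 4 WT libraries came from WT mice, and the 4 OPA1-deficient libraries from mice carrying CD11c-Cre and a floxed Opa1 gene. OPA1 is the GTPase that fuses inner mitochondrial membranes, and CD11c-Cre acts in dendritic cells and also in other cells that express CD11c. The labels used here give no age, do not say whether WT mice carried Cre, and do not tie a library to an animal, so the spread between libraries may be technical. The assay was ATAC-seq, in which a transposase cuts accessible DNA, and a level is given as CPM, the count in a region scaled to the library's total and TMM factor.

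In the integrated stress response, kinases that sense different stresses phosphorylate the translation factor eIF2. Most translation then slows, while the mRNA of the transcription factor ATF4 is translated more. ATF4, with partners of the C/EBP family, drives genes for amino acid synthesis, amino acid transport and stress control. Mitochondrial damage can feed into this pathway, and mitochondria have their own chaperones and proteases. The comparison of OPA1-deficient with WT cells asks whether loss of a mitochondrial fusion protein was accompanied by altered chromatin accessibility at these genes.

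Total counts in regions ranged from 4660826 to 7590578 per library. The Opa1 region checked (chromosome 16, 29579132 to 29579622) stood at 42.1 ± 3.86 CPM in WT against 39.2 ± 3.73 CPM in OPA1-deficient libraries (SD, n = 4 each, edgeR adjusted p = 0.924). Which exons were removed is not stated, so this does not check the genotype. All later errors of group means are also SDs of 4 libraries, and errors of log2 fold changes are standard errors. Of the 11 cDC1 markers checked, all 11 had regions, with summed levels of 684 to 720.02 CPM in WT against 679 to 721 CPM in OPA1-deficient libraries. T cell markers had regions at 4 of 8 genes, with none at Cd3e, Cd3g, Thy1 or Bcl11b, and NK cell markers at 2 of 6, with none at Gzma, Klrb1c, Ncr1 or Nkg7. Markers of cDC2 had regions at 8 of 10 genes, and their sums overlapped (335 to 429 CPM in WT against 367 to 442 CPM in OPA1-deficient libraries). Of their 24 tested regions 12 were higher and 12 lower, with 6 higher and 0 lower without overlap. Among these 6, the smallest p was at a region of Itgam, at 4.51 ± 1.48 CPM in WT against 10.7 ± 1.73 CPM in OPA1-deficient libraries. Its log2 fold change was 1.23 ± 0.24 (edgeR adjusted p = 0.0607). Of the 48 cDC1 marker regions, 0 were higher and 3 lower without overlap. Of all tested regions, 1.84% were higher and 2.11% lower without overlap. The sums of pDC, B cell, neutrophil and red cell markers also overlapped between the groups. Macrophage or monocyte markers had regions at 12 of 12 genes, and their summed level was 165 to 179 CPM in WT against 144 to 155 CPM in OPA1-deficient libraries, so that the groups did not overlap.

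The bases around a gene start show which members have a match there to the element through which ATF4 acts. RefSeq promoter windows (GRCm38, 250 bases before the start to 50 after) were present for 36 of the 39 genes. They were searched on both strands for the C/EBP-ATF response element, CARE, written TGATGNAA. The element was in 10 of 42 member windows (23.8%), against 3.97% of all 32851 windows of that length. The 10 genes were Asns, Atf3, Chac1, Herpud1, Nupr1, Pck2, Pycr1, Slc7a11, Trib3 and Vldlr. In Trib3 the match lay after the start, so its sequence is not shown. The stretches of the other members are printed 5′ to 3′ on the strand of the gene, with the element in capitals, as its reverse complement where it lies on the other strand. The first set shows the members whose element lay inside a region of the table, that is, in measured open chromatin.

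Asns, chr6:7693210-7693262, minus strand: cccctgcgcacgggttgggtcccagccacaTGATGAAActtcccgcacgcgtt
Atf3, chr1:191183406-191183473, minus strand: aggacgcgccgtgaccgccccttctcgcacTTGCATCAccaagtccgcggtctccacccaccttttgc
Chac1, chr2:119351019-119351086, plus strand: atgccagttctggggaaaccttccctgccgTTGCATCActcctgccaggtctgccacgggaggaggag
Herpud1, chr8:94386287-94386354, plus strand: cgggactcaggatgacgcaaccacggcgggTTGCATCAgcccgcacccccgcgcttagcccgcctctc
Pck2, chr14:55540133-55540200, plus strand: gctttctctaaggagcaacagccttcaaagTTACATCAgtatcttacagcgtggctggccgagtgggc
Slc7a11, chr3:50443623-50443709, minus strand: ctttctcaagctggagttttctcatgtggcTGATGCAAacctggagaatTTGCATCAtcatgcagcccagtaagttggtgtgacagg

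In Slc7a11, the gene for the cystine transporter subunit xCT, the stretch held the element once in each direction. The second set shows the members that carried the element but had no region in the table.

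Nupr1, chr7:126625543-126625610, minus strand: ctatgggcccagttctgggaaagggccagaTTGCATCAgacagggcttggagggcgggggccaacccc
Pycr1, chr11:120643814-120643881, minus strand: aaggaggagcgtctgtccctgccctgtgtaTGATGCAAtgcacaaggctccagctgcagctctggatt
Vldlr, chr19:27216790-27216857, plus strand: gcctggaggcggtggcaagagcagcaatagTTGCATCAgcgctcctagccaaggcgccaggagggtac

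Hspa5 encodes BiP, the main chaperone of the endoplasmic reticulum. Its window held an endoplasmic reticulum stress element (ERSE, CCAAT followed after 9 bases by CCACG), which 0.119% of all windows held. This stretch lay inside the Hspa5 region of the table.

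Hspa5, chr2:34771995-34772073, plus strand: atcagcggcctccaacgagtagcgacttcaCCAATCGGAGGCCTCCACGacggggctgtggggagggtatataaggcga

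The cyclic AMP response element TGACGTCA was in the window of Ppp1r15a and no other member (1.79% of all windows), and the unfolded protein response element TGACGTGG was in no member window (0.676% of all windows). No match overlapped a match to another of these elements. A match describes letters in the window and is not evidence of binding. A window without a match does not show that the gene lacks the element elsewhere or in another form.

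Member genes were mostly accessible at their starts in both genotypes. Of the 36 members with a promoter window, 30 had a region over a start (83.3%), against 51.3% of the 17492 protein-coding genes with a window. By position, 29 member regions lay over a start, 5 over another end of the gene span, 40 inside a gene and 7 outside it within 1 kb. Of the 81 regions, 15 were also within 1 kb of another protein-coding gene. The mean level over a start ranged from 4.52 CPM at Phgdh to 196 CPM at Eif2ak3, with a median of 62.3 CPM. The median over all tested regions at a start was 34.5 CPM. Per length, the median was 91.7 CPM per kb of region over member starts and 39.5 CPM per kb over the other member regions.

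No difference between genotypes at these genes passed the test, and log2 fold changes (OPA1-deficient over WT) ranged from −0.97 inside Eif2s1 to 1.20 inside Slc7a11. Both ends of this range were weak regions. The Slc7a11 one passed the filter on low counts mainly through OPA1-deficient libraries, where it was higher. Of the 81 member regions, all of which passed the filter on low counts, 0 were called by the quasi-likelihood test of edgeR at a Benjamini-Hochberg adjusted p under 0.05, and the smallest adjusted p was 0.527. In the table as a whole 0.0203% of regions were called (0.00506% higher and 0.0152% lower in OPA1-deficient libraries). DESeq2 and limma-voom also called 0 member regions, against 0.0727% and 0.00675% of all regions. At an unadjusted p under 0.05 there were 9 member regions (11.1%), 7 higher and 2 lower, against 6.38% of all tested regions (2.92% higher and 3.46% lower). The 7 included the weak Slc7a11 region just named. The count of 9 became 5 of 80 without OPA1-deficient replicate 3, where 80 member regions passed the filter. It was 6 of 81 without WT replicate 3 or OPA1-deficient replicate 2. It was 10 of 81 without WT replicate 1 and 11 of 81 without WT replicate 2. Of the members, 51 regions were higher and 30 lower in OPA1-deficient libraries, with a median log2 fold change of 0.02. Over all 59247 tested regions 29190 were higher and 30057 lower, with a median of −0.00. The number of member regions higher was 41 of 80 without OPA1-deficient replicate 3, where the median was 0.00. It was 45 of 81 without WT replicate 3 and 46 of 81 without OPA1-deficient replicate 4. Without WT replicate 2 it was 55 of 81, with a median of 0.07. A 95% interval within 1.5-fold in either direction was found for 53 of the 81 regions and for 25 of the 29 over a start. For the remaining regions the interval reached 1.5-fold or beyond.

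**Figure D1:**
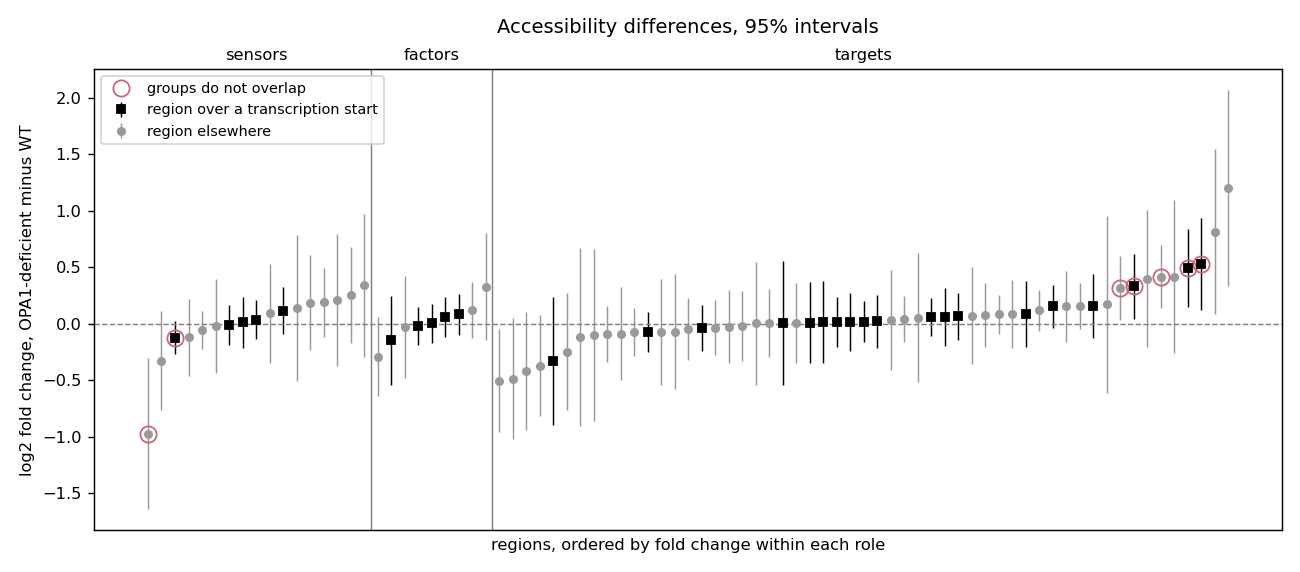
Log2 fold change (OPA1-deficient minus WT) of each of the 81 member regions with its 95% interval, ordered within sensors, factors and targets; black squares are regions over a transcription start, grey circles lie elsewhere, and rings mark regions whose groups do not overlap. Most values lie close to 0, and the widest intervals belong to regions away from starts.

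Over starts alone, 22 of the 29 member regions were higher in OPA1-deficient libraries (median log2 fold change 0.02). The groups did not overlap in 4 of the 29, against 3.1% of all tested regions over a start. Of all 9323 such regions, 38.4% were higher, with a median of −0.03. The count of 22 moved when single libraries were left out, as did the share of all starts. It was 16 of 29 without OPA1-deficient replicate 3 or 4, against 34.8% and 42.2% of all starts. Without WT replicate 2 it was 24 of 29, against 45.4% of all starts. With counts scaled by library totals it was 24 of 29, against 45.8% of all starts.

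At the sensors and the eIF2 machinery no difference passed the test. The kinase genes are Eif2ak3, encoding PERK, which senses misfolded protein in the endoplasmic reticulum, Eif2ak4, encoding GCN2, which senses uncharged tRNA, and Eif2ak1, encoding HRI, a kinase that responds to haem shortage and relays mitochondrial stress. The region over the start of Eif2ak3 (chromosome 6, 70844034 to 70844760) was at 192.33, 217, 192.34 and 214 CPM in WT replicates 1 to 4 and at 187, 182, 190.5 and 190.2 CPM in OPA1-deficient replicates 1 to 4. All 4 OPA1-deficient libraries lay below all WT libraries, but by less than 2 CPM at the nearest pair. The means were 204 ± 13.4 and 187 ± 4.14 CPM, and the difference did not pass the test (log2 fold change −0.12 ± 0.07 SE, edgeR adjusted p = 0.830). With counts scaled by library totals the groups overlapped. The region over the start of Eif2ak4 was at 88.0 ± 4.29 and 87.4 ± 2.76 CPM, and that of Eif2ak1 at 51.4 ± 7.38 and 52.0 ± 3.78 CPM. The 5 regions inside Eif2ak3 and the 1 inside Eif2ak4 were weaker, with group means of 3.34 to 11.2 CPM and log2 fold changes of −0.33 to 0.34, in no case past the test.

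Eif2s1 encodes the subunit of eIF2 that these kinases phosphorylate. Its start region, also within 1 kb of Atp6v1d, was at 121, 138, 124 and 129 CPM in WT against 121, 149, 134 and 121 CPM in OPA1-deficient libraries, and the groups overlapped (log2 fold change 0.04 ± 0.08, edgeR adjusted p = 0.969). A second region, inside the gene (chromosome 12, 78868208 to 78868488), was far weaker, at 4.72, 5.46, 5.07 and 4.13 CPM in WT against 3.84, 2.72, 1.34 and 1.97 CPM in OPA1-deficient libraries. Every OPA1-deficient library lay below every WT library, at levels where a library held few counts. The log2 fold change was −0.97 ± 0.33, with an edgeR adjusted p of 0.544.

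The genes for the phosphatase subunits that reverse this phosphorylation were accessible at a start or an end of the span. Ppp1r15a encodes GADD34, the stress-induced subunit, and its start region was at 73.0 ± 8.55 CPM in WT against 79.4 ± 10.5 CPM in OPA1-deficient libraries. Ppp1r15b encodes the constitutive subunit CReP, and the region over an end of its span was at 119 ± 5.76 and 115 ± 9.21 CPM. Across the 17 regions of this role, 10 were higher and 7 lower, the median log2 fold change was 0.04, and 0 were called.

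**Figure D2:**
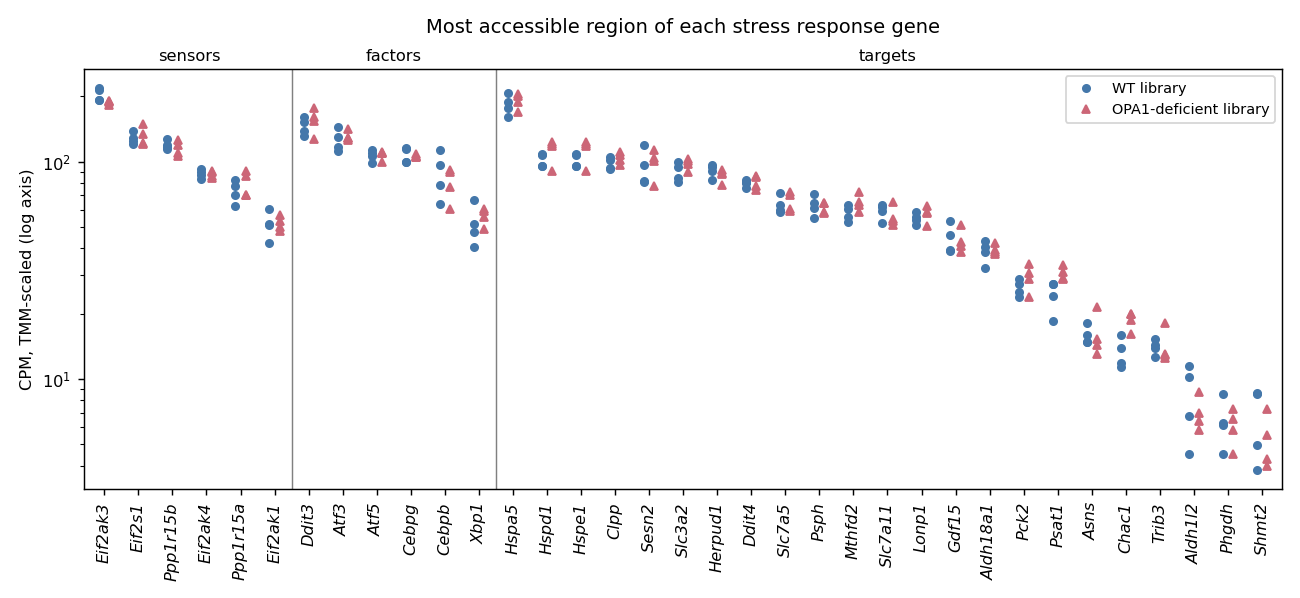
CPM (TMM-scaled, log axis) of the most accessible region of each member gene in each of the 8 libraries, ordered by level within sensors, factors and targets; circles are WT and triangles OPA1-deficient libraries. Eif2ak3, Hspa5 and Ddit3 are at the top, Aldh1l2, Phgdh and Shmt2 at the bottom, and for most genes the symbols of the groups overlap.

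Of the transcription factor genes, Atf3, Atf5, Ddit3, Cebpb and Cebpg had highly accessible starts, and no factor region had a difference past the test. Atf4 and Nupr1 had no region, and the Xbp1 regions lay inside the gene. Ddit3 encodes CHOP, a factor induced by prolonged stress, and its start region, also within 1 kb of Mbd6, was at 131, 161, 138 and 153 CPM in WT against 160.02, 153, 177 and 127 CPM in OPA1-deficient libraries. The OPA1-deficient libraries held both the lowest and the highest of the 8 values (log2 fold change 0.08 ± 0.09, edgeR adjusted p = 0.924). Atf3, a stress-induced repressor and activator with the CARE sequence shown above, was at 112, 145, 129.6 and 116 CPM in WT against 129, 142, 129 and 126 CPM in OPA1-deficient libraries. Atf5, a factor tied to the mitochondrial unfolded protein response, was at 107 ± 6.59 and 107 ± 5.43 CPM, with a 95% interval of −0.16 to 0.17 for the log2 fold change. That region lay within 1 kb of Nup62 and Il4i1b as well.

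Cebpg and Cebpb encode C/EBP partners of ATF4. The Cebpg start was at 108 ± 8.87 and 106 ± 1.74 CPM. A weaker region outside the gene had the smallest p among the factors, at 16.1, 18.9, 13.5 and 16.2 CPM in WT against 11.96, 13.8, 13.1 and 14.3 CPM in OPA1-deficient libraries (log2 fold change −0.29 ± 0.17, edgeR adjusted p = 0.828). The lowest WT library lay among the OPA1-deficient ones. The Cebpb start was the most variable of the factor starts, at 63.6, 113, 77.7 and 96.9 CPM in WT against 76.6, 91.4, 89.6 and 60.2 CPM in OPA1-deficient libraries. Its coefficient of variation was 24.7% within WT and 18.2% within OPA1-deficient libraries, against 6.15% and 5.05% at Atf5. Xbp1, a factor of the endoplasmic reticulum response, had a region 58 bp inside its start at 51.6 ± 11.1 and 56.1 ± 5.11 CPM. Over the 9 factor regions 5 were higher and 4 lower, with a median log2 fold change of 0.01 and 0 called.

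The amino acid transport genes among the targets held 22 of the 81 member regions, of which 12 were higher and 10 lower in OPA1-deficient libraries (median log2 fold change 0.04). In 3 of the 22 every OPA1-deficient library lay above every WT library, as did 1.84% of all tested regions. Slc7a5 and Slc3a2 encode LAT1 and CD98, the light and heavy chains of one transporter for large neutral amino acids. Inside Slc7a5 (chromosome 8, 121898131 to 121898865) levels were 18.9, 24.3, 20.9 and 22.4 CPM in WT against 30.9, 28.7, 28.2 and 27.9 CPM in OPA1-deficient libraries. This region had the smallest p of all members, with means of 21.6 ± 2.32 and 28.9 ± 1.36 CPM and a log2 fold change of 0.42 ± 0.14 (edgeR adjusted p = 0.527). The region over the end of the Slc7a5 span was at 63.5 ± 5.92 and 65.5 ± 6.58 CPM (log2 fold change 0.04 ± 0.10).

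At Slc3a2, the region over a start (chromosome 19, 8713749 to 8714014) was at 6.999, 9.36, 8.02 and 7.90 CPM in WT against 10.4, 10.7, 11.7 and 13.8 CPM in OPA1-deficient libraries. A region inside the gene (8711897 to 8712274) was at 23.4, 22.6, 20.3 and 20.6 CPM in WT against 29.8, 25.0, 29.1 and 24.5 CPM in OPA1-deficient libraries. In neither region did the groups overlap, and the log2 fold changes were 0.53 ± 0.20 and 0.32 ± 0.14 (edgeR adjusted p = 0.634 and 0.735). Between these regions lay another, at 38.3 ± 5.61 and 36.1 ± 1.86 CPM, whose log2 fold change was −0.09 ± 0.12. The most accessible Slc3a2 region, over the upstream end of the span, was at 80.9, 99.7, 84.5 and 94.4 CPM in WT against 97.7, 102, 101 and 89.6 CPM in OPA1-deficient libraries, and the groups overlapped.

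Slc7a11 had the most regions of any member, 14, of which 13 lay inside the gene. Its most accessible region was inside the gene, 36447 bp from the start that has a promoter window, at 59.0 ± 4.97 CPM in WT against 56.1 ± 6.18 CPM in OPA1-deficient libraries. The start region, which holds the CARE sequences shown above, was at 32.0, 42.4, 31.2 and 50.4 CPM in WT against 45.8, 39.4, 47.5 and 33.3 CPM in OPA1-deficient libraries (log2 fold change 0.09 ± 0.14). The largest log2 fold change of any member, 1.20 ± 0.42, was at the weakest member region, 73410 bp from this start, which stood at 1.22, 1.72, 1.27 and 1.26 CPM in WT against 4.70, 3.08, 3.35 and 1.48 CPM in OPA1-deficient libraries. OPA1-deficient replicate 4 lay within the WT range there, and the edgeR adjusted p was 0.576. Counts in that region were 8, 11, 6 and 7 in WT against 33, 17, 25 and 9 in OPA1-deficient libraries. It thus passed the filter on low counts mainly through the group where it was high. A region 61769 bp from the start had the opposite sign, from 9.62 ± 2.44 to 6.76 ± 0.912 CPM (−0.50 ± 0.22, edgeR adjusted p = 0.743).

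**Figure D3:**
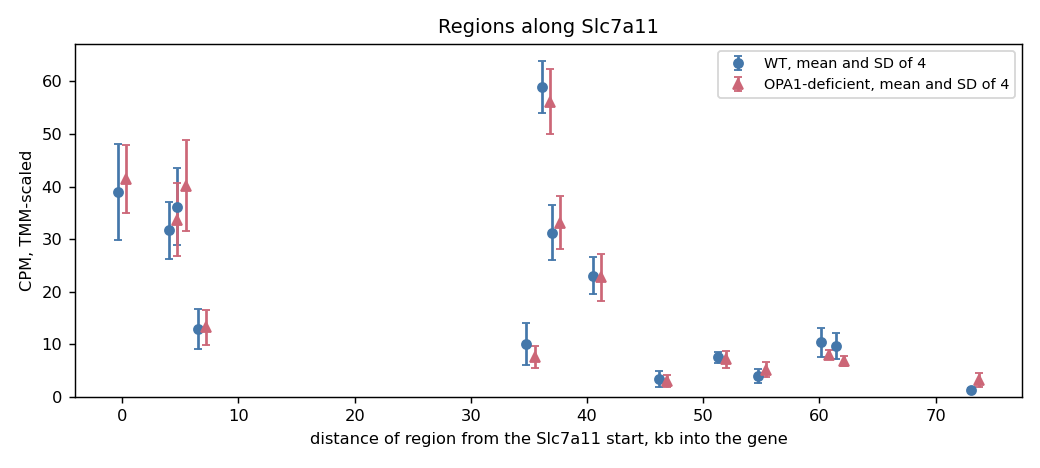
Level (CPM, TMM-scaled; mean and SD of 4 libraries) of the 14 regions of Slc7a11 against their distance from the gene start in kb, with WT and OPA1-deficient symbols drawn slightly apart. Levels are high near the start and again around the most accessible region, and the SD bars of the groups overlap at all regions but the weakest, farthest from the start.

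Of the amino acid synthesis genes, Psat1, which encodes the aminotransferase of serine synthesis, had a start region (chromosome 19, 15924578 to 15925286) at 27.2, 18.4, 24.1 and 27.5 CPM in WT against 29.2, 33.4, 28.7 and 31.2 CPM in OPA1-deficient libraries. The groups did not overlap, with the nearest libraries close together and WT replicate 2 lowest. The means were 24.3 ± 4.22 and 30.6 ± 2.13 CPM (log2 fold change 0.33 ± 0.14, edgeR adjusted p = 0.716). At the starts of the other genes of serine synthesis the groups overlapped. Psph, the phosphatase that completes it, had its start region, also within 1 kb of Cct6a, at 71.1, 61.4, 55.3 and 64.4 CPM in WT against 58.2, 58.4, 64.8 and 64.5 CPM in OPA1-deficient libraries. Phgdh, the dehydrogenase that begins it, was barely open at its start, at 4.52 ± 0.191 and 4.51 ± 0.865 CPM. A weaker region inside Phgdh was at 2.11 ± 0.621 and 3.74 ± 0.891 CPM, and the groups overlapped (log2 fold change 0.81 ± 0.36, edgeR adjusted p = 0.735). Another inside it was at 6.36 ± 1.64 and 6.05 ± 1.16 CPM (−0.07 ± 0.25). Asns, which makes asparagine, was at 15.9 ± 1.58 and 16.1 ± 3.74 CPM, and Aldh18a1, of proline synthesis, at 38.6 ± 4.46 and 39.3 ± 1.98 CPM. Over the 10 regions of this group 6 were higher and 4 lower, with a median log2 fold change of 0.01.

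The mitochondrial enzymes of folate-linked one-carbon metabolism had levels that differed widely between genes, and no difference between genotypes passed the test. Mthfd2, which is induced by ATF4, had its most accessible region over the upstream end of its span, within 1 kb of Mob1a, at 55.5, 63.3, 53.0 and 60.3 CPM in WT against 58.9, 65.1, 72.3 and 63.0 CPM in OPA1-deficient libraries. These groups overlapped (log2 fold change 0.16 ± 0.10, edgeR adjusted p = 0.847), although they did not with counts scaled by library totals. The region over the start that has a promoter window was at 32.5 ± 3.87 and 33.1 ± 2.33 CPM. Shmt2, the mitochondrial serine hydroxymethyltransferase, was at 6.48 ± 2.46 and 5.25 ± 1.49 CPM, and Aldh1l2 at 8.24 ± 3.18 and 6.98 ± 1.24 CPM over an end of its span. Pck2, which makes phosphoenolpyruvate in mitochondria, was at 26.3 ± 2.26 and 29.3 ± 4.18 CPM (log2 fold change 0.16 ± 0.14).

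Among the stress regulators, Chac1, which encodes an enzyme that degrades glutathione, had 1 region, over its start (chromosome 2, 119350902 to 119351407). It holds the CARE sequence printed above. Levels were 11.9, 15.9, 11.4 and 13.8 CPM in WT against 19.93, 19.95, 18.8 and 16.1 CPM in OPA1-deficient libraries. The groups did not overlap, by a margin under 1 CPM between WT replicate 2 and OPA1-deficient replicate 4. The means of 13.2 ± 2.06 and 18.7 ± 1.82 CPM gave a log2 fold change of 0.49 ± 0.17, with a 95% interval of 0.15 to 0.84 and an edgeR adjusted p of 0.557.

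The other stress regulators had log2 fold changes nearer to 0. Sesn2, an inhibitor of mTORC1 signalling, was at 81.7, 119, 80.7 and 96.2 CPM over its start in WT against 101, 104, 113 and 77.1 CPM in OPA1-deficient libraries, and the spread within each group exceeded the difference of the means. Ddit4, encoding REDD1, another inhibitor of mTORC1, was at 79.4 ± 2.95 and 80.4 ± 5.52 CPM. Trib3, a pseudokinase that restrains ATF4 and CHOP, was at 14.0 ± 1.08 and 14.1 ± 2.64 CPM. All 6 regions of these 4 genes had log2 fold changes above 0, from 0.01 to 0.49.

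Gdf15 encodes a secreted factor that rises in blood in mitochondrial disease. Its region lay inside the gene, 1889 bp from the nearest start, at 38.8, 45.9, 39.3 and 53.1 CPM in WT against 40.9, 42.8, 50.9 and 38.4 CPM in OPA1-deficient libraries, and the groups overlapped (log2 fold change −0.03 ± 0.12, edgeR adjusted p = 0.986).

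Genes of the endoplasmic reticulum gave no difference past the test. The Hspa5 start region was at 159.6, 208, 177 and 188.3 CPM in WT against 199.9, 187.9, 205 and 169 CPM in OPA1-deficient libraries (log2 fold change 0.06 ± 0.08, edgeR adjusted p = 0.947). Herpud1 takes part in the degradation of misfolded proteins, and its start was at 82.2, 96.5, 94.8 and 91.0 CPM in WT against 88.7, 78.0, 91.5 and 88.0 CPM in OPA1-deficient libraries (−0.07 ± 0.09, edgeR adjusted p = 0.936). In both genes the libraries of the groups were interleaved.

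The mitochondrial chaperones and proteases gave no difference past the test. Hspd1 and Hspe1 encode HSP60 and its co-chaperone HSP10, which fold proteins in the mitochondrial matrix, and are transcribed in opposite directions from 1 shared region. It was at 107.7, 94.98, 108.7 and 95.1 CPM in WT against 90.7, 118, 120.1 and 123 CPM in OPA1-deficient libraries. Of the OPA1-deficient libraries 3 lay above all WT libraries, and replicate 1 lay below them all (log2 fold change 0.15 ± 0.09, edgeR adjusted p = 0.836). The start of Lonp1, a matrix protease, was at 54.8 ± 3.28 and 57.5 ± 4.78 CPM, within 1 kb of Catsperd. That of Clpp, the proteolytic subunit of another, was at 45.1 ± 3.39 and 45.7 ± 3.57 CPM. A stronger region past the end of Clpp, within 1 kb of Alkbh7, was at 98.3 ± 6.39 and 104 ± 6.16 CPM.

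In sum over the roles, 7 of the 81 member regions had groups that did not overlap (8.64%), 5 higher and 2 lower in OPA1-deficient libraries, against 3.95% of all tested regions (1.84% higher and 2.11% lower). Since the members were picked with earlier results of these data known, this share is given as a description. The higher regions were those of Slc3a2, Slc7a5, Psat1 and Chac1, and the lower ones those of Eif2ak3 and Eif2s1. None of these 7 was called when any 1 library was left out, and the smallest edgeR adjusted p in those fits was 0.221, at Slc7a5 without WT replicate 2. The summed macrophage or monocyte marker level and 6 of the cDC2 marker regions, among them the Itgam region, also separated the groups. Their part in these differences was not tested.

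**Figure D4:**
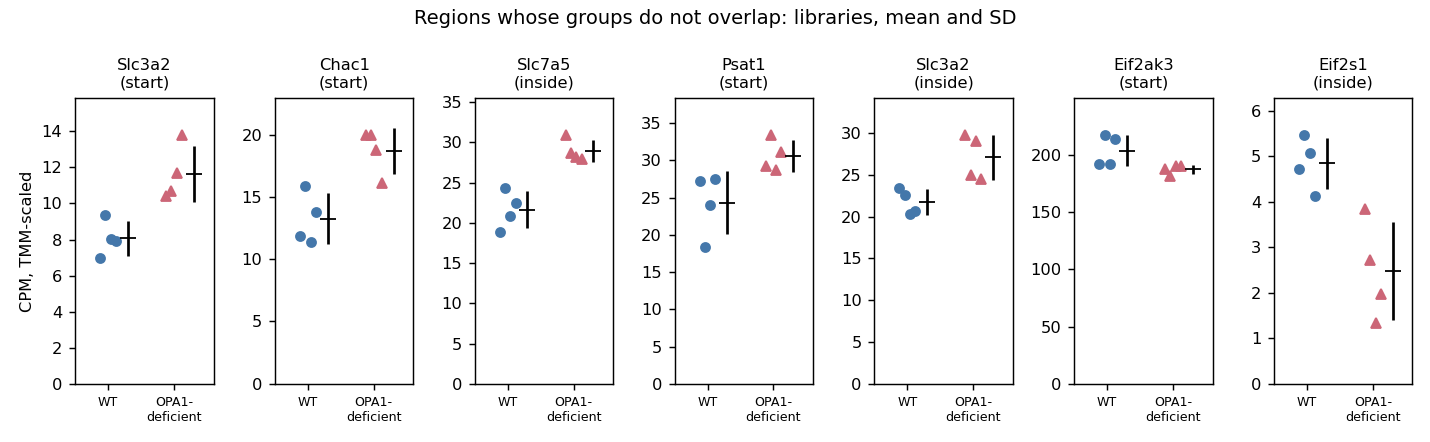
CPM (TMM-scaled, linear axis from 0) of the 7 member regions whose groups do not overlap, with each library as a symbol (circles WT, triangles OPA1-deficient) and the mean and SD of 4 libraries beside them. The OPA1-deficient libraries lie higher at 5 regions and lower at Eif2ak3 and Eif2s1. The margins are small at Psat1, Chac1, Eif2ak3, Eif2s1 and the region inside Slc3a2.

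Counts summed over all regions of a gene also held no call among the members. Of the 35 members with a region, 0 were called by edgeR over 20635 gene sums, where 0.0194% were called, and the smallest adjusted p of a member was 0.697. Limma-voom and DESeq2 also called 0 members. At an unadjusted p under 0.05 there were 3 members, Chac1, Psat1 and Slc3a2, all higher, against 5.5% of all gene sums (2.65% higher). That count was 5 without WT replicate 2, and 2 without WT replicate 4 or OPA1-deficient replicate 2 or 3. The groups did not overlap for Chac1 and Psat1, 2 of 35, against 3.23% of all gene sums. The sums were 13.1 ± 1.82 and 18.8 ± 1.85 CPM for Chac1 (log2 fold change 0.51 ± 0.16), 27.1 ± 4.67 and 34.9 ± 2.28 CPM for Psat1 (0.36 ± 0.13), and 159.3 ± 10.6 and 176 ± 5.33 CPM for Slc3a2 (0.15 ± 0.07). Log2 fold changes of the sums were above 0 for 27 of the 35 members, with a median of 0.05, against 0.00 over all genes. Without WT replicate 1 these were 21 of 35 and 0.02. Hspd1 and Hspe1 have the same sum.

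The CARE sequence was set beside the differences between genotypes. Of the 7 start regions of members with a match, 6 were higher in OPA1-deficient libraries, with a median log2 fold change of 0.06, and of the 22 start regions of members without one 16 were higher, with a median of 0.02. Chac1 was the only one of the 7 whose groups did not overlap. The median level was 27.8 CPM over the starts with a match and 78.1 CPM over the others.

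Summed levels varied more within each genotype than the group means differed. Summed over all member regions, levels were 3027, 3569, 3097 and 3350.3 CPM in WT against 3262, 3403, 3512 and 3162 CPM in OPA1-deficient libraries. For the factors the sums were 577, 762, 632 and 677 CPM in WT against 665, 694, 711 and 612 CPM in OPA1-deficient libraries, and for the sensors 735, 824, 727 and 790.4 CPM and 731, 795, 781 and 741 CPM. The targets summed to 1715, 1983, 1738 and 1883 CPM in WT against 1866, 1914, 2020 and 1809 CPM in OPA1-deficient libraries. WT replicates 1 and 3 and OPA1-deficient replicate 4 were the lowest libraries in the sums of the targets and factors and over all members. These 3 libraries, singled out after the values were seen, were also the 3 lowest in 17 of the 81 member regions (21.0%), against 6.76% of all tested regions. The 17 included the starts of Ddit3, Sesn2, Hspa5, Ppp1r15a, Cebpg and Slc7a11, and 6 of the 14 regions of Slc7a11. Over starts alone the count was 6 of 29 (20.7%), against 9.48% of all tested regions over a start. Correlations were also taken over the most accessible regions of the whole table, from which the members were not removed. There, deviations of OPA1-deficient replicate 4 from its group mean correlated with those of WT replicates 1 to 4 at 0.54, −0.57, 0.30 and −0.20. Deviations from a group mean cancel out within the group, so a mix of signs was fixed in advance. The cause of the 3 low libraries was not tested.

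**Figure D5:**
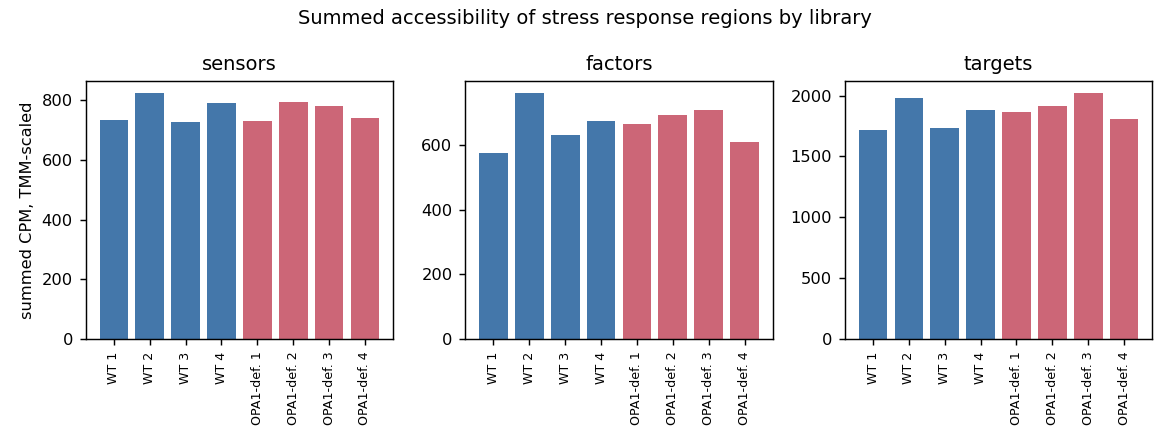
Summed CPM (TMM-scaled) of the member regions of sensors, factors and targets in each of the 8 libraries, as bars from 0 (blue WT, red OPA1-deficient). WT replicate 2 has the highest bar for sensors and factors, WT replicates 1 and 3 and OPA1-deficient replicate 4 have the lowest bars for factors and targets, and neither genotype is set apart.

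Other genes of the same pathways, from lists drawn up by function, had 0 regions called. Regulators of eIF2 other than the members, such as the subunits of its exchange factor eIF2B, had 10 regions higher and 11 lower at 13 genes (median log2 fold change −0.01). Genes for the relay from mitochondria, such as Oma1 and Dele1, and for quality control had 10 higher and 14 lower at 13 of 14 genes (−0.03). Cytosolic aminoacyl-tRNA synthetases, many of which are ATF4 targets, had 14 higher and 24 lower at 18 genes (−0.05). In that list the smallest p was at Nars, the asparaginyl-tRNA synthetase gene, from 15.5 ± 1.04 to 11.8 ± 2.71 CPM (−0.40 ± 0.19, edgeR adjusted p = 0.765). Further ATF4-linked metabolic and transport genes had 39 higher and 36 lower (0.00), and genes of the endoplasmic reticulum response 21 higher and 23 lower (−0.01). In the last list the smallest p was at Creb3l2, a membrane-bound factor of that response, from 9.43 ± 1.67 to 6.21 ± 0.905 CPM (−0.60 ± 0.22, edgeR adjusted p = 0.623).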

How the data were processed

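The deposited values are counts of ATAC-seq signal per region, without normalization, per the values in the authors' table. The builds mm10 and GRCm38 and the tools MACS2 2.1.0.20150603, cutadapt 1.9, bedtools, Picard 1.65 and SAMtools are named in the submitters' processing notes, without their roles. The rule for the common region set and any shift of read ends are not given in the sources used here, and whether starts count from 0 or 1 is also not given. Counts were even in 54.1% to 59.9% of values per library. Intervals and p-values cover these 8 libraries alone.

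Columns were matched to libraries by library name. Gene spans came from RefSeq gene models (GRCm38.p6, 49997 models, all 39 members matched) and starts from RefSeq promoter windows. Regions were filtered with filterByExpr, which kept 59247 and removed 659, scaled with TMM factors (0.947 to 1.03) and tested with edgeR 4.0.16 in R 4.3.3 (glmQLFit with robust estimation, glmQLFTest), without covariates, with calls at an adjusted p of 0.05 over all regions. Standard errors and 95% intervals came from that model. The procedure was tested on simulated counts, drawn independently for each region and library, without shifts shared between libraries. Gene sums used all models with a region. A list is described by counts and its median, with no test of its own.

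The members and lists were chosen with earlier results of these data known. By rule, per-library values are given for the most accessible region and the one with the smallest p of each of 10 functional groups and for regions whose groups do not overlap; other members have their most accessible or start region. Slc7a11, Atf3, Cebpb and Phgdh regions, and the 3 low libraries, were singled out after their values were seen. Alternatives were DESeq2 1.42.0 size factors, library totals, the DESeq2 test, limma-voom (limma 3.58.1), no filter or a mean of at least 3 CPM, a replicate block, windows of 0 and 5 kb, and leaving out each library.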

Additional observations from a re-analysis of the deposited data

Results flagged for a closer look

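At the shared start region of Hspd1 and Hspe1, OPA1-deficient replicate 1 was at 90.7 CPM, while the other 3 OPA1-deficient libraries lay between 118 and 123 CPM. Its distance from them was above the 95% limit of Dixon's ratio for 4 samples. Of 44 groups examined this way, 1 was marked, and chance marks about 1 in 20.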

How the results depend on the processing

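The count of member regions called stayed at 0 in all 17 alternatives, as did the count of member gene sums. Over the whole table, where 12 regions were called, DESeq2 called 41, limma-voom 4 and the fit with a replicate block 1, and fits without 1 library called from 1 to 68, the latter without WT replicate 2. Of gene sums, where 4 were called, DESeq2 called 14, limma-voom 2 and the replicate block 1, and fits without 1 library called from 1 to 37, the latter also without WT replicate 2. The labels do not say whether the replicate numbers pair the libraries. Deviations of same-numbered WT and OPA1-deficient libraries correlated at −0.39, 0.00, −0.21 and −0.20 in replicates 1 to 4. Since these deviations were taken from the group means, they cannot decide whether libraries were paired. The block changed no call among the members. The median log2 fold change of the member regions stayed between 0.00 and 0.07. That of the factors, 0.01, was −0.029 to 0.14 when 1 library was left out, with 0.14 without WT replicate 2; that of the sensors was 0.01 to 0.07 and that of the targets 0.00 to 0.07. Depth limits the weak regions: half-widths of the 95% interval had a median of 0.22 (log2) over starts and 0.43 elsewhere.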
